A study of Mus musculus with 6 samples.

Results

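Bone morphogenetic proteins (BMPs) and the secreted proteins that hold them back were followed between the anterior and the posterior part of the developing mouse secondary palate. The set comprised 10 genes, 6 ligands (Bmp2, Bmp3, Bmp4, Bmp5, Bmp6 and Bmp7) and 4 secreted antagonists (Nog, Grem1, Chrd and Bmper). They were found by symbol among the 56691 genes of the count files, and all 10 were among the 15673 genes that had enough counts to be tested. Bulk RNA-seq had been performed on palatal shelves microdissected from C57BL/6J mice at embryonic day 14.0, the anterior 1/3 in 3 libraries and the posterior 1/3 in 3 libraries. No mutant allele and no treatment is named for either region. Whether a library came from 1 embryo or from several is not stated for the bulk samples, so the p-values measure the spread between these libraries.

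BMPs are secreted dimers that bind pairs of serine/threonine kinase receptors and signal through phosphorylated Smad proteins to genes such as those of the Id and Msx families. Noggin, gremlin and chordin bind the ligands outside the cell and keep them from the receptors, chordin until a protease cuts it, and Bmper (crossveinless) is a chordin-related protein that can restrain or favour the signal. In the anterior palatal mesenchyme, the homeobox gene Msx1 and the ligand genes Bmp4 and Bmp2 are known as parts of a network with Shh of the overlying epithelium, and Bmp3 is known as a ligand that opposes the signal of the others.

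Promoter windows were looked up for the 10 genes because some of them moved in the same direction. The RefSeq windows (GRCm38.p6) span 250 bases before to 50 bases after the start site, and 6 of the 10 genes matched one (Bmp4, Bmp5, Bmp6, Grem1, Chrd and Bmper). Bmp2, Bmp3, Bmp7 and Nog had no entry. The windows of the 3 matched genes that differed between the regions are shown 5′ to 3′ on the strand of the gene. They lie at chr2:113758599-113758898 on the minus strand (Grem1), at chr13:38345466-38345765 on the plus strand (Bmp6) and at chr9:75775115-75775414 on the plus strand (Bmp5). Capitals mark GGCGCC, a BMP Smad element, and GTCTG, a Smad binding element that reads CAGAC where it lies on the other strand. The Bmp6 window lies inside the Bmp6 gene of GENCODE M21, whose start is upstream of the RefSeq start.
Grem1: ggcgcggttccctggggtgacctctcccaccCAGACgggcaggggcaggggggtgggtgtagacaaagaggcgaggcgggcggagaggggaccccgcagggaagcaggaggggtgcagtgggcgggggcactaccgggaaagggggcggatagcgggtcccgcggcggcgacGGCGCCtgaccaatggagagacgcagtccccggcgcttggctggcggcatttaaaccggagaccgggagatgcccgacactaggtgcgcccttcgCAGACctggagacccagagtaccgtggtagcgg
Bmp6: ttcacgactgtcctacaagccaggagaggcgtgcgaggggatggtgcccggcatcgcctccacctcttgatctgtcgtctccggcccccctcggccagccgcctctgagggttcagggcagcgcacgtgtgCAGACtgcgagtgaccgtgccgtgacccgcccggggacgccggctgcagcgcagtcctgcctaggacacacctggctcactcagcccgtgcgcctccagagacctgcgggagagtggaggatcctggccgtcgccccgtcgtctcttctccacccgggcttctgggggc
Bmp5: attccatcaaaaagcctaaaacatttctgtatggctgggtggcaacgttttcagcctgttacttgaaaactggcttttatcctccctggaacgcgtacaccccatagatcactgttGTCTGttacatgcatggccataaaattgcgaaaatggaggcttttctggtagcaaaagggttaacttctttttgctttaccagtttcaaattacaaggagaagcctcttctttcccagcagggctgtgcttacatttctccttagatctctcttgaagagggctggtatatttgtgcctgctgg

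The Grem1 window held GGCGCC once, beginning 78 bases before the start site, and GTCTG in 2 places, whereas Bmp6 and Bmp5 held GTCTG once each. On both strands, GGCGCC was found in 11.9% and GTCTG in 49.6% of the 32851 promoter windows of the table. Chrd also held both motifs, and Bmp4 and Bmper held neither. The homeodomain cores TAATTG (8.0% of all windows) and TAATTA (5.29%) were in none of the 6 windows. These matches describe letters in the windows and were not compared with any binding data.

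The libraries held 11378736 to 15172733 counts on genes, and the 10 genes had between 63 and 1645 counts in any library. Levels are given as CPM, the counts of a gene relative to the library total, which edgeR scaled by the TMM method to an effective library size. Posterior replicates 2 and 3 stood apart from the other 4 libraries, with 6.12% and 5.94% of reads mapping to several places against 8.45% to 8.77%, and with 0.973% and 1.14% of counts on mitochondrial genes against 2.70% to 2.97%. The 7 palatal mesenchyme genes were present in every library and summed to 1561 to 1726 CPM in the anterior and 984 to 1257 CPM in the posterior libraries, without overlap. Of them, Prrx1 (log2 fold change -1.34) and Lhx8 (-1.01) were called higher in the anterior and Twist1 (0.74) and Tbx22 (4.58) in the posterior palate, and Osr2, Pax9 and Twist2 were not called. The posterior libraries held skeletal muscle RNA, as the summed level of 10 muscle genes was 8.50 to 14.1 CPM in the anterior and 600 to 1074 CPM in the posterior palate, with all 10 genes called higher there. Chondrocyte genes summed to 202 to 295 CPM in the anterior and 556 to 818 CPM in the posterior palate, with 3 of 7 tested genes called. Epithelial (1256 to 1384 CPM anterior, 889 to 1475 CPM posterior), myeloid, erythroid, glial and neuronal genes had sums that overlapped between the regions, with at most 1 gene of each list called. The part of these cells in the results was not tested, and in whole tissue fewer cells of a type and less RNA per cell cannot be told apart.

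Grem1 and Bmp3 were several-fold higher in the posterior palate, Bmp6 was higher in the anterior palate, and Bmp5 was higher in the posterior palate by a margin that depended on the setting. Of the 10 genes, 4 passed edgeR's quasi-likelihood test at the 0.05 threshold after adjustment over all genes, against 7.46% of all genes tested. Higher in the posterior palate were 3 of them (background 4.87%), and 1 was higher in the anterior palate (background 2.59%). The called genes included 3 of the 6 ligands and 1 of the 4 antagonists. The CPM of the regions did not overlap for 8 of the 10 genes, 5 with the posterior and 3 with the anterior libraries higher, whereas this held for 28.0% of all genes (14.7% and 13.4% in these directions). The median log2 fold change, posterior over anterior, was 0.21 for the ligands, 0.93 for the antagonists and -0.0040 for all genes, and the median absolute log2 fold change was 1.19 for the 10 genes and 0.24 for all genes. An exact two-sided permutation test on 3 against 3 libraries cannot give a p-value below 0.1, which each of the 8 genes without overlap reached.

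**Figure D1:**
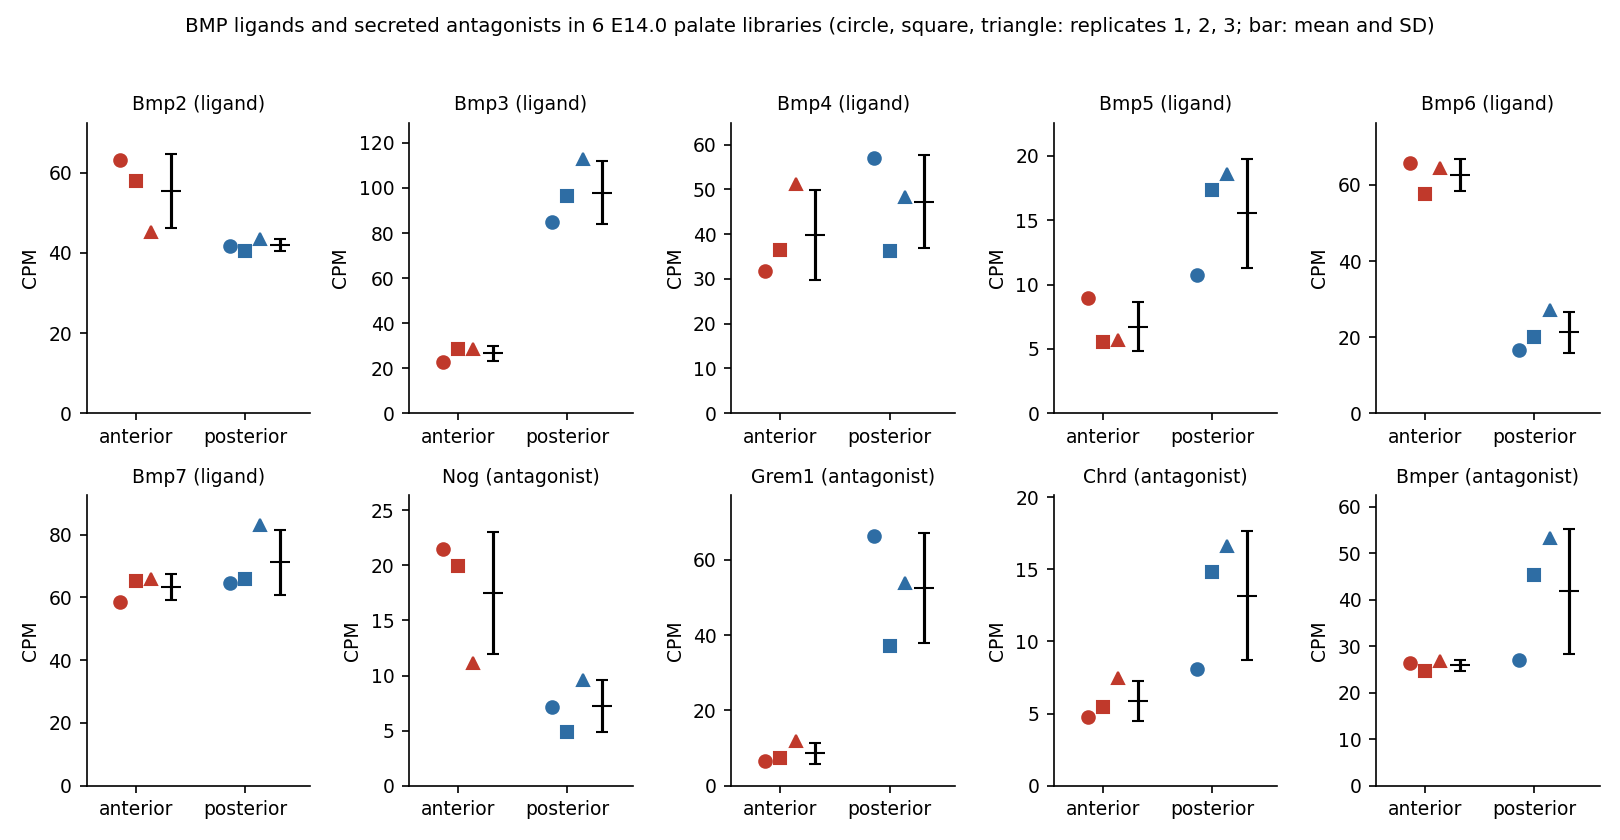
CPM (y axes, linear from 0) of each of the 10 genes in the 3 anterior (red) and 3 posterior (blue) libraries, with circles, squares and triangles for replicates 1, 2 and 3 and black bars for the mean and SD. Grem1 and Bmp3 are higher in all 3 posterior libraries and Bmp6 in all 3 anterior libraries, while the regions overlap for Bmp4 and Bmp7.

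Among the ligands, Bmp3 (ENSMUSG00000029335.6, chromosome 5, 98854415 to 98884396 of GRCm38) differed most. It had 22.7, 28.5 and 28.6 CPM in anterior replicates 1, 2 and 3 and 84.9, 96.2 and 113 CPM in posterior replicates 1, 2 and 3. Every posterior library was thus above every anterior one, and the spread within a region was small beside the 3.69-fold ratio of the means. On the log2 scale the change was 1.88 with a standard error of 0.147 (edgeR, adjusted p = 0.000517), and it stayed between 1.68 and 1.98 under the 17 alternative settings, each of which called it.

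Bmp6 (ENSMUSG00000039004.7, chromosome 13, 38345107 to 38500302), a ligand of the same subgroup as Bmp5 and Bmp7, went the other way. Its levels were 65.7, 57.7 and 64.4 CPM in the anterior and 16.5, 20.2 and 27.2 CPM in the posterior libraries. The regions did not overlap, and the anterior mean was 2.94-fold higher. A log2 fold change of -1.55, with a standard error of 0.180 (edgeR, adjusted p = 0.00276), was called under all 17 alternatives, with values from -1.92 to -1.40.

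Bmp5 (ENSMUSG00000032179.8, chromosome 9, 75775364 to 75900310), known from the short ear mutation that alters skeletal elements, was the ligand with the fewest counts. It had 8.95, 5.53 and 5.71 CPM in the anterior and 10.7, 17.3 and 18.6 CPM in the posterior libraries. Posterior replicate 1 came close to anterior replicate 1, but the regions did not overlap. This was a log2 fold change of 1.21 with a standard error of 0.275 (edgeR, adjusted p = 0.0413). The call was lost when anterior replicate 2 (adjusted p = 0.175), anterior replicate 3 (adjusted p = 0.156), posterior replicate 2 (adjusted p = 0.148) or posterior replicate 3 (adjusted p = 0.135) was left out, with log2 fold changes of 1.06 to 1.46 over the 6 omissions. It was also lost with limma-voom (adjusted p = 0.0518). The difference of posterior replicates 2 and 3 was also fitted as a term of its own. This left posterior replicate 1 alone against the anterior libraries, with a log2 fold change of 0.67. Bmp5 overlaps Gm47723 on its own strand and Gm26903 on the other strand. Its unstranded counts were 47.0% of the stranded ones used here, with a log2 fold change of 1.65 and an adjusted p of 0.0502 from edgeR.

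Bmp2, Bmp4 and Bmp7 did not pass the test. Bmp2 (ENSMUSG00000027358.7, chromosome 2, 133552159 to 133562885), expressed in palatal epithelium and mesenchyme, had 63.2, 57.9 and 45.2 CPM in the anterior and 41.8, 40.6 and 43.5 CPM in the posterior libraries. All anterior libraries were above all posterior ones, replicate 3 by the smallest margin. Its log2 fold change was -0.40 (95% interval -0.72 to -0.087, adjusted p = 0.125 from edgeR), and it was called without posterior replicate 1 (-0.40, adjusted p = 0.0429), where 46.4% of all genes were called.

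Bmp4 (ENSMUSG00000021835.16, chromosome 14, 46383520 to 46390669), the ligand tied to Msx1 in the anterior mesenchyme, had 31.7, 36.5 and 51.1 CPM in the anterior and 57.0, 36.3 and 48.3 CPM in the posterior libraries. The regions overlapped over most of their range. The log2 fold change of 0.25 had a 95% interval from -0.26 to 0.76 (adjusted p = 0.491 from edgeR). It was positive and not called under all 17 alternatives, with values from 0.10 to 0.52.

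Bmp7 (ENSMUSG00000008999.8, chromosome 2, 172868012 to 172940321) showed the smallest difference of the 10 genes. It had 58.7, 65.4 and 65.9 CPM in the anterior and 64.7, 65.7 and 83.0 CPM in the posterior libraries, and posterior replicate 3 was above all others. The log2 fold change was 0.17 (95% interval -0.12 to 0.46, adjusted p = 0.411 from edgeR).

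Among the antagonists, Grem1 (ENSMUSG00000074934.4, chromosome 2, 113746164 to 113758646), which binds mainly Bmp2, Bmp4 and Bmp7, had the largest change of the 10 genes. Its levels were 6.45, 7.34 and 11.9 CPM in the anterior and 66.3, 37.2 and 54.0 CPM in the posterior libraries. The lowest posterior library was well above the highest anterior one, and the posterior mean was 6.14-fold higher. In edgeR the log2 fold change was 2.62 with a standard error of 0.290 (adjusted p = 0.00229), called under all 17 alternatives with values from 2.43 to 2.97.

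Nog (ENSMUSG00000048616.5, chromosome 11, 89300638 to 89302332), the single-exon gene of noggin, was the only antagonist with the higher level in the anterior palate. It had 21.5, 19.9 and 11.2 CPM in the anterior and 7.11, 4.91 and 9.60 CPM in the posterior libraries. Anterior replicate 3 lay much nearer to the posterior libraries than to the other anterior ones. The log2 fold change was -1.28 (95% interval -2.02 to -0.55) and narrowly missed the threshold, with an adjusted p of 0.0527 from edgeR. The call depended on the setting. It was gained without anterior replicate 3 (-1.52, adjusted p = 0.0362), without posterior replicate 1 (-1.27, adjusted p = 0.0186, with 46.4% of all genes called) and with DESeq2 (-1.28, adjusted p = 0.00202, with 12.6% of all genes called). The adjusted p rose to 0.196 without anterior replicate 1 (-1.11), to 0.194 without anterior replicate 2 (-1.18) and to 0.165 without posterior replicate 2 (-1.06). The log2 fold change was -1.30 when posterior replicates 2 and 3 had a term of their own, which left posterior replicate 1 alone.

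Chrd and Bmper, which share cysteine-rich von Willebrand type C domains, were higher in posterior replicates 2 and 3 than in any other library. The summed level of 8 endothelial genes, none of them called, was also highest there, with 617 and 663 CPM against 481 to 504 CPM in the anterior libraries and 418 CPM in posterior replicate 1, and its part in the levels of Chrd and Bmper was not tested. Chrd (ENSMUSG00000006958.15, chromosome 16, 20733127 to 20742384) had 4.78, 5.45 and 7.44 CPM in the anterior and 8.08, 14.8 and 16.6 CPM in the posterior libraries. It had a log2 fold change of 1.16 with a standard error of 0.30 (edgeR, adjusted p = 0.0611). Bmper (ENSMUSG00000031963.9, chromosome 9, 23223076 to 23485200) had 26.4, 24.6 and 26.7 CPM in the anterior and 26.9, 45.4 and 53.2 CPM in the posterior libraries. It had a log2 fold change of 0.69 with a standard error of 0.231 (edgeR, adjusted p = 0.123), and posterior replicate 1 was at the anterior level. The regions did not overlap for either gene, but for Bmper the margin was within counting error, with 360 counts in posterior replicate 1 and 309 to 348 in the anterior libraries. Without posterior replicate 1 both were called, with log2 fold changes of 1.43 for Chrd (adjusted p = 0.000785) and 0.93 for Bmper (adjusted p = 0.000206), in a setting that called 46.4% of all genes. A term of their own for posterior replicates 2 and 3 left posterior replicate 1 alone against the anterior libraries. The values were then 0.46 for Chrd and 0.058 for Bmper.

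**Figure D2:**
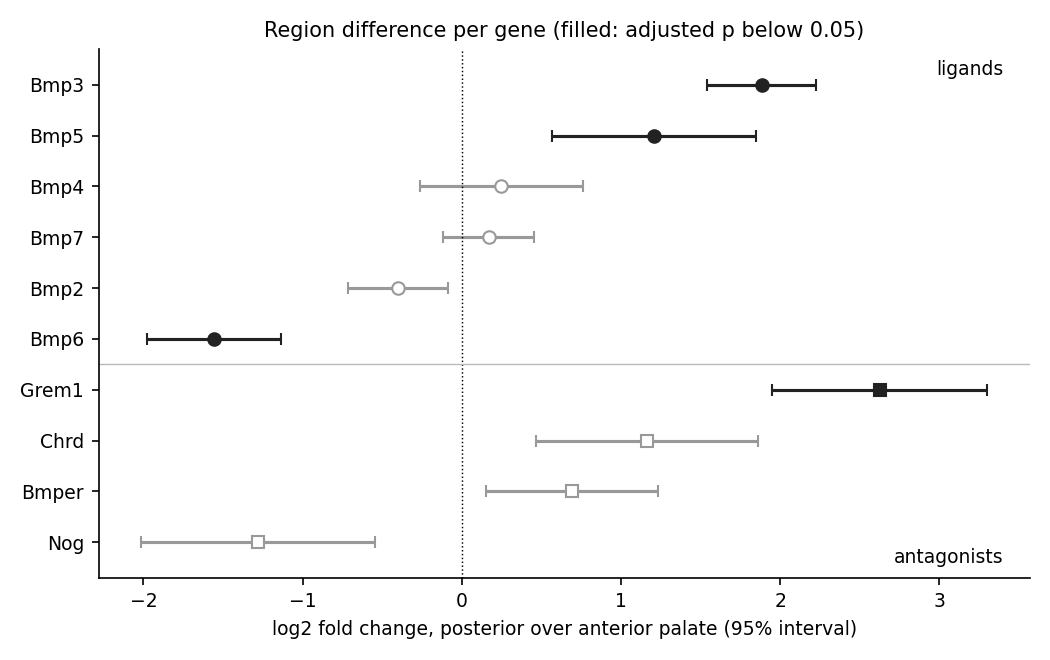
Log2 fold change, posterior over anterior palate (x axis), of the 6 ligands (circles) and 4 antagonists (squares), with 95% intervals from edgeR and filled symbols for adjusted p-values below 0.05. The 4 called genes run from -1.55 for Bmp6 to 2.62 for Grem1, and the intervals of Bmp4 and Bmp7 include 0.

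Because posterior replicates 2 and 3 stood apart, the posterior libraries were also set against the anterior mean separately, a step chosen after seeing the data. On the log2 scale of CPM ratios, Grem1 was 2.96 higher in posterior replicate 1 and 2.41 in replicates 2 and 3, Bmp3 1.68 and 1.98, and Bmp6 -1.92 and -1.40. These genes thus differed from the anterior mean in the same direction in both kinds of library. Nog (-1.30 and -1.27) and Bmp2 (-0.41 and -0.40) gave nearly the same ratio in both. By contrast, Bmp5 (0.67 and 1.42), Chrd (0.46 and 1.41) and Bmper (0.057 and 0.93) were closer to the anterior level in posterior replicate 1. When posterior replicates 2 and 3 were given a term of their own in the fit, 3 of the 10 genes were called (Bmp3, Grem1 and Bmp6), against 7.61% of all genes. DESeq2 on the same counts called 7, the 4 of edgeR and Nog, Chrd and Bmper, against 12.6% of all genes. The same 7 were called by edgeR without the filter on low counts, against 7.14% of all genes.

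Within each region some genes shared their order over the libraries. Bmp4 and Grem1 had the same order in both regions, with anterior replicate 3 and posterior replicate 1 highest and anterior replicate 1 and posterior replicate 2 lowest. In anterior replicate 3, which had the highest Bmp4, Bmp7, Grem1 and Chrd and the lowest Bmp2 and Nog of the anterior libraries, Msx1 stood at 282 CPM against 146 and 184 CPM. Among the genes of the dental list, Tfap2b, Dlx2, Sostdc1 and Barx1 were also highest there among the anterior libraries, whereas Lhx6 was highest in replicate 2 and Ambn was lowest in replicate 3 (19.6, 23.8 and 13.3 CPM). Tfap2b had 1.97, 15.4 and 117 CPM and Dlx2 had 9.86, 16.3 and 52.1 CPM in anterior replicates 1, 2 and 3. The summed level of the 8 dental genes was 254 to 631 CPM in the anterior and 406 to 588 CPM in the posterior libraries, with Amelx at 0 in all 6. The part of dental tissue in the levels of Bmp4, Nog and Grem1 was not tested. Without anterior replicate 3, the log2 fold change was 0.47 for Bmp4 (adjusted p = 0.307), -1.52 for Nog and 2.92 for Grem1 (adjusted p = 0.00581).

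Levels of different genes were compared per length, as CPM per kilobase of exons. Summed over the ligands, the level was 70.4 ± 2.84 CPM per kilobase in the anterior libraries and 73.1 ± 7.51 in the posterior ones (SD, n = 3 in each), and the regions overlapped. The antagonists of the set summed to 18.7 ± 2.25 and 27.7 ± 4.39 CPM per kilobase, without overlap. Other secreted antagonists and modulators were not in this sum or in the ratio. The ratio of ligands to antagonists was 3.36, 3.53 and 4.56 in the anterior and 2.65, 2.81 and 2.51 in the posterior libraries. All anterior libraries thus had the higher ratio, by a mean difference of -0.51 on the log2 scale, posterior minus anterior, which anterior replicate 3 widened (-0.38 without it). This sum was not tested, because the genes were chosen with results of these data known.

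Within this set of antagonists, Nog had the largest mean share in the anterior and Grem1 in the posterior libraries. Among the ligands, Bmp3 and Bmp6 exchanged shares. Among the antagonists, Nog held 54.3% of the summed level in the anterior libraries and 15.1% in the posterior ones, while Grem1 held 11.5% and 45.8%. Nog was 2.30 to 8.15 times the level of Grem1 in the anterior libraries, and Grem1 was 2.30 to 3.81 times the level of Nog in the posterior libraries. Bmper held 29.0% and 31.5%, and Chrd 5.19% and 7.66%. In posterior replicate 2, Bmper (39.7%) was above Grem1 (38.0%). Among the ligands, Bmp6 went from 22.8% in the anterior to 7.43% in the posterior palate and Bmp3 from 5.10% to 18.1%. Bmp4 (25.0% and 28.8%) and Bmp7 (22.4% and 24.2%) held similar shares in both regions, and Bmp2 held 22.3% and 16.2%.

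**Figure D3:**
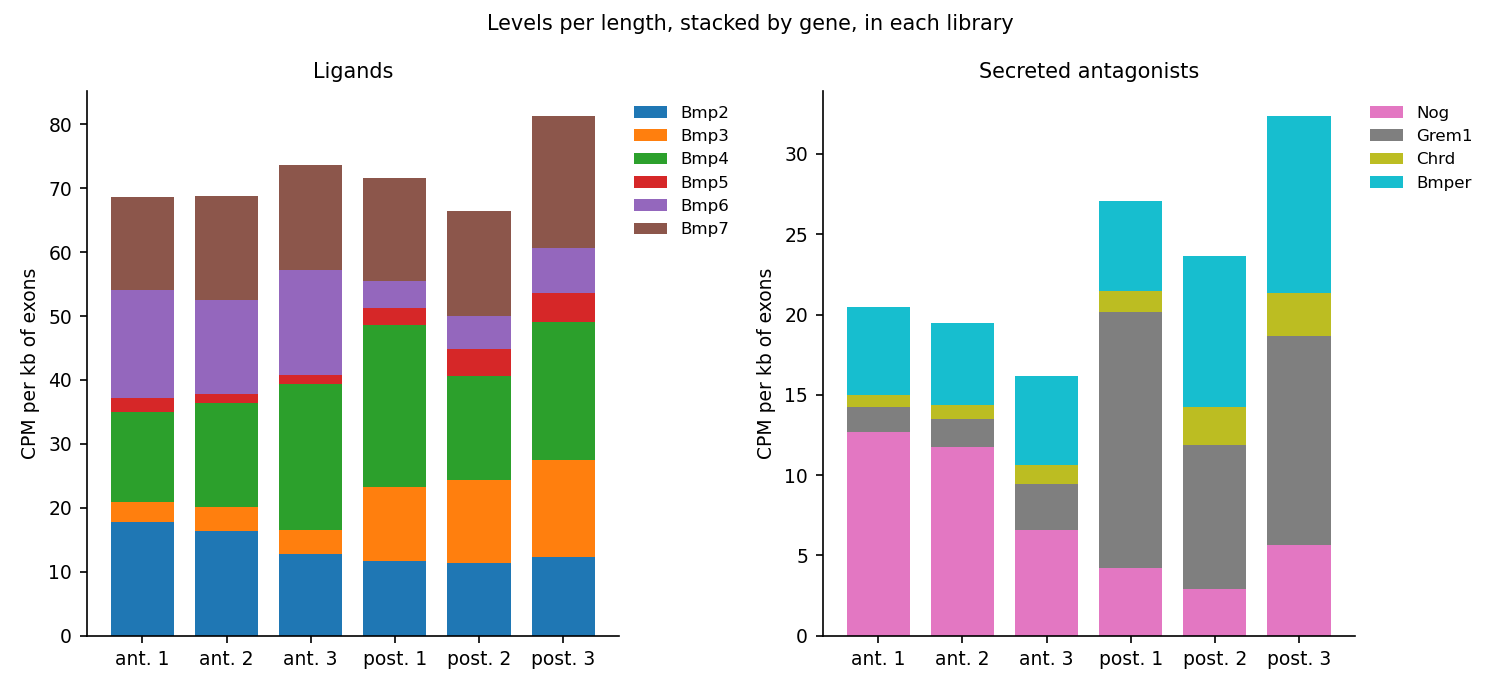
CPM per kilobase of exons (y axes, linear from 0) in each of the 6 libraries, stacked by gene, for the 6 ligands (left) and the 4 antagonists (right). Nog holds most of the antagonist level in anterior replicates 1 and 2, Grem1 the largest part in posterior replicates 1 and 3, and the ligand sums stay between 66.4 and 81.2.

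In the order of levels per length, Bmp4 came first in both regions, with 17.7 ± 4.50 CPM per kilobase in the anterior libraries and 21.02 ± 4.62 in the posterior ones (SD, n = 3). In the anterior palate it was followed by Bmp6 (16.1), Bmp7 (15.8) and Bmp2 (15.6), and the libraries of each of these neighbours overlapped. Nog (10.3), Bmper (5.36), Bmp3 (3.59) and Grem1 (2.06) came next, each separated from the one before, then Bmp5 (1.67), which overlapped Grem1, and Chrd (0.941). In the posterior palate the order after Bmp4 was Bmp7 (17.7), Bmp3 (13.2), Grem1 (12.7), Bmp2 (11.8), Bmper (8.66), Bmp6 (5.46), Nog (4.25), Bmp5 (3.86) and Chrd (2.10). The libraries of Bmp7 and Bmp3, of Bmp2 and Bmper, and of Bmp5 and Chrd did not overlap, and the other neighbours could not be parted.

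Of 64 other genes of the pathway, 56 were tested and 18 were called, against 7.46% of all genes, 8 higher in the posterior (background 4.87%) and 10 higher in the anterior palate (background 2.59%). The counts by role that follow are to be read against the same shares. Their median log2 fold change was -0.033. None of the 5 other ligands tested and none of the 4 proteases tested was called. The genes named from these lists are taken from the 15 with the smallest adjusted p-values and a few core targets and receptors.

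Of the 12 other secreted antagonists and modulators tested, 3 were called higher in the posterior and 1 in the anterior palate. Fstl1, a secreted follistatin-like glycoprotein, was the most abundant of them in CPM, with a log2 fold change of 0.88 (adjusted p = 0.00504 from edgeR), which missed the threshold without anterior replicate 1 (0.88, adjusted p = 0.0504) or 2 (0.85, adjusted p = 0.0544). Sost, the gene of sclerostin, had 1.38 to 2.98 CPM in the anterior and 0.0748 to 0.480 CPM in the posterior libraries, and its log2 fold change of -3.03 (adjusted p = 0.0168 from edgeR) rests on 1, 4 and 7 posterior counts. The adjusted p of Sost was 0.0766 without posterior replicate 2 (-3.04), 0.0501 with the replicate block and 0.0638 with the length correction and the block (-2.86). Its value was -4.85 when posterior replicates 2 and 3 had a term of their own, which left the 1 count of posterior replicate 1.

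Of the 12 receptors and coreceptors, 4 were called higher in the posterior and 1 in the anterior palate. Bmpr1b, a BMP kinase receptor, had 4.70, 5.45 and 5.36 CPM in the anterior and 11.0, 17.3 and 16.4 CPM in the posterior libraries, which gave a log2 fold change of 1.53 with a standard error of 0.207 (edgeR, adjusted p = 0.00500). Hjv, the coreceptor hemojuvelin, which skeletal muscle is known to express, had 0.0759 to 0.582 CPM in the anterior and 6.36 to 10.4 CPM in the posterior libraries. Its fitted log2 fold change of 4.67 (adjusted p = 0.00151 from edgeR) rests on 1, 8 and 4 anterior counts, and it ran beside the muscle genes, whose part in it was not tested. Acvr2a, an activin and BMP receptor, had a log2 fold change of 0.74 (adjusted p = 0.0248 from edgeR), and its call was lost without any 1 library other than posterior replicate 1, with adjusted p-values of 0.0823 to 0.122. It was also lost with the replicate block (0.72, adjusted p = 0.0557). The value of Acvr2a was 0.38 when posterior replicates 2 and 3 had a term of their own, which left posterior replicate 1 alone. Bambi, a pseudoreceptor that BMP signalling induces, was higher in the anterior palate, with a log2 fold change of -0.98 (adjusted p = 0.0191 from edgeR). Without anterior replicate 1, anterior replicate 2 or posterior replicate 2, Bambi had adjusted p-values of 0.0875, 0.0924 and 0.0934. The receptors Bmpr1a (0.46) and Bmpr2 (0.51) had positive log2 fold changes that did not pass the test, both with an adjusted p of 0.152 from edgeR, and were called without posterior replicate 1 (0.64 and 0.71), as were 46.4% of all genes. With that term of their own for posterior replicates 2 and 3, the values were 0.021 for Bmpr1a and 0.0035 for Bmpr2. The length correction took Bmpr2 to 0.060.

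Of the 8 Smads and regulators, 1 was called. Smad6, an inhibitory Smad that the pathway induces, had 35.2, 36.1 and 29.1 CPM in the anterior and 19.1, 21.6 and 18.8 CPM in the posterior libraries. Smad6 thus had a log2 fold change of -0.76 with a standard error of 0.126 (edgeR, adjusted p = 0.0123), with adjusted p-values of 0.0675, 0.0736 and 0.0536 without anterior replicate 1, anterior replicate 2 or posterior replicate 3. Smad7, the other inhibitory Smad of the pathway, had a log2 fold change of -0.20 (adjusted p = 0.443 from edgeR).

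Of the 10 target genes, 1 was called higher in the posterior and 4 in the anterior palate, and the 2 Msx genes went in opposite directions. Msx1 had 146, 184 and 282 CPM in the anterior and 1.05, 1.37 and 1.03 CPM in the posterior libraries, with a log2 fold change of -7.46 and a standard error of 0.336 (edgeR, adjusted p = 0.000124). Msx2, the paralog, had 4.48, 4.58 and 7.27 CPM in the anterior and 17.7, 27.2 and 22.4 CPM in the posterior libraries, with a log2 fold change of 2.05 and a standard error of 0.246 (edgeR, adjusted p = 0.00320). Hey1, a transcriptional repressor that BMP and Notch signals induce, had a log2 fold change of -1.36 (adjusted p = 0.000897 from edgeR). Dlx5, a homeobox gene of bone-forming cells, had one of -1.68 (adjusted p = 0.0160 from edgeR), and without anterior replicate 1, anterior replicate 2 or posterior replicate 2 its adjusted p-values were 0.0683, 0.0718 and 0.0689. Of the 7 osteoblast genes tested, Dmp1 was called higher in the anterior palate (-2.64), Ibsp (-2.09), Sp7 (-1.39), Alpl (-0.92) and Runx2 (-0.63) had negative values and Col1a1 (0.84) and Spp1 (0.13) positive ones that did not pass the test, and Bglap had at most 0.228 CPM. Their sum, mostly Col1a1, was 5873 to 8650 CPM in the anterior and 6682 to 11728 CPM in the posterior libraries, and the part of bone-forming cells in the level of Dlx5 was not tested. Id1 (-0.19), Id2 (0.099) and Id3 (-0.24), the common readouts of the pathway, did not pass the test, with adjusted p-values of 0.391, 0.523 and 0.202 from edgeR, and the log2 fold change of Id1 turned to 0.083 when posterior replicates 2 and 3 had a term of their own. Without posterior replicate 1, Id1 (-0.35) and Id3 (-0.31) were called, as were 46.4% of all genes, and with the length correction they were -0.039 and -0.098.

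Of the 6 other genes of the anterior Msx1 network, 4 were called, all higher in the anterior palate, while Bmp4 (0.25) and Bmp2 (-0.40) did not pass the test. The list is of genes tied to the anterior palate, and the study reports Msx1 and Shox2 as higher there in this bulk RNA-seq. The direction of this count was thus largely set in advance, and the 4 genes are also among the pathway genes counted above. Besides Msx1, Shox2 fell by 5.04 on the log2 scale from anterior to posterior palate (adjusted p = 0.000526 from edgeR), the mesenchymal growth factor gene Fgf10 fell by 1.06 (adjusted p = 0.00297) and the epithelial signal gene Shh fell by 1.27 (adjusted p = 0.0196). Shh missed the threshold without anterior replicate 2 (-1.24, adjusted p = 0.0871), anterior replicate 3 (-1.12, adjusted p = 0.0756) or posterior replicate 2 (-1.13, adjusted p = 0.0834). The 2 other genes of this list had negative log2 fold changes that did not pass the test. Whether Bmp4 or Bmp2 differs from these genes in its change was not tested.

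**Figure D4:**
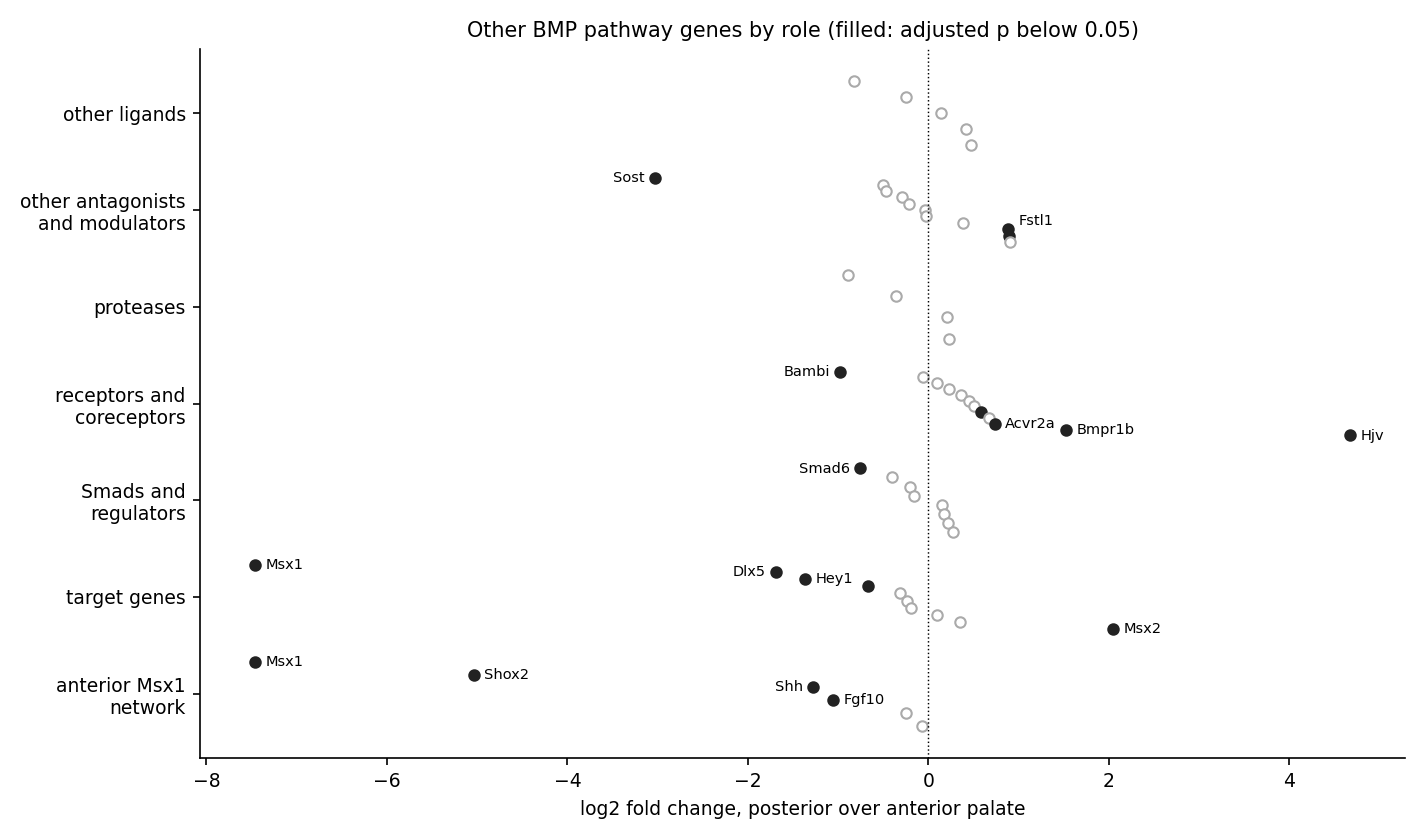
Log2 fold change, posterior over anterior palate (x axis), of other pathway genes tested, arranged by role (y axis), with filled symbols for adjusted p-values below 0.05 from edgeR and names for the called genes given in the text. Msx1, drawn under both roles it has, is farthest to the anterior side at -7.46 and Hjv farthest to the posterior side at 4.67.

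For the 3 members with the smallest adjusted p-values, the genes with the highest Pearson correlation of log2 CPM over the 6 libraries were sought among 11074 genes. Bmp3 was most like Ttn, the giant protein of the muscle sarcomere (Pearson r = 0.998), then Islr and Phf19 (both 0.998). Grem1 was most like the ephrin ligand Efnb2 (0.999), then Farp1 and Bnc1 (both 0.998), and Bmp6 was most like Fech (0.997), Prc1 (0.993) and the epithelial regulator Trp63 (0.993). The correlation takes no account of the size of a change, and Fech (log2 fold change -0.12), Prc1 (-0.19) and Farp1 (0.32) were not called between the regions. These values describe 6 libraries that share the split into regions, and the genes were picked from all those compared for their likeness.

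**Figure D5:**
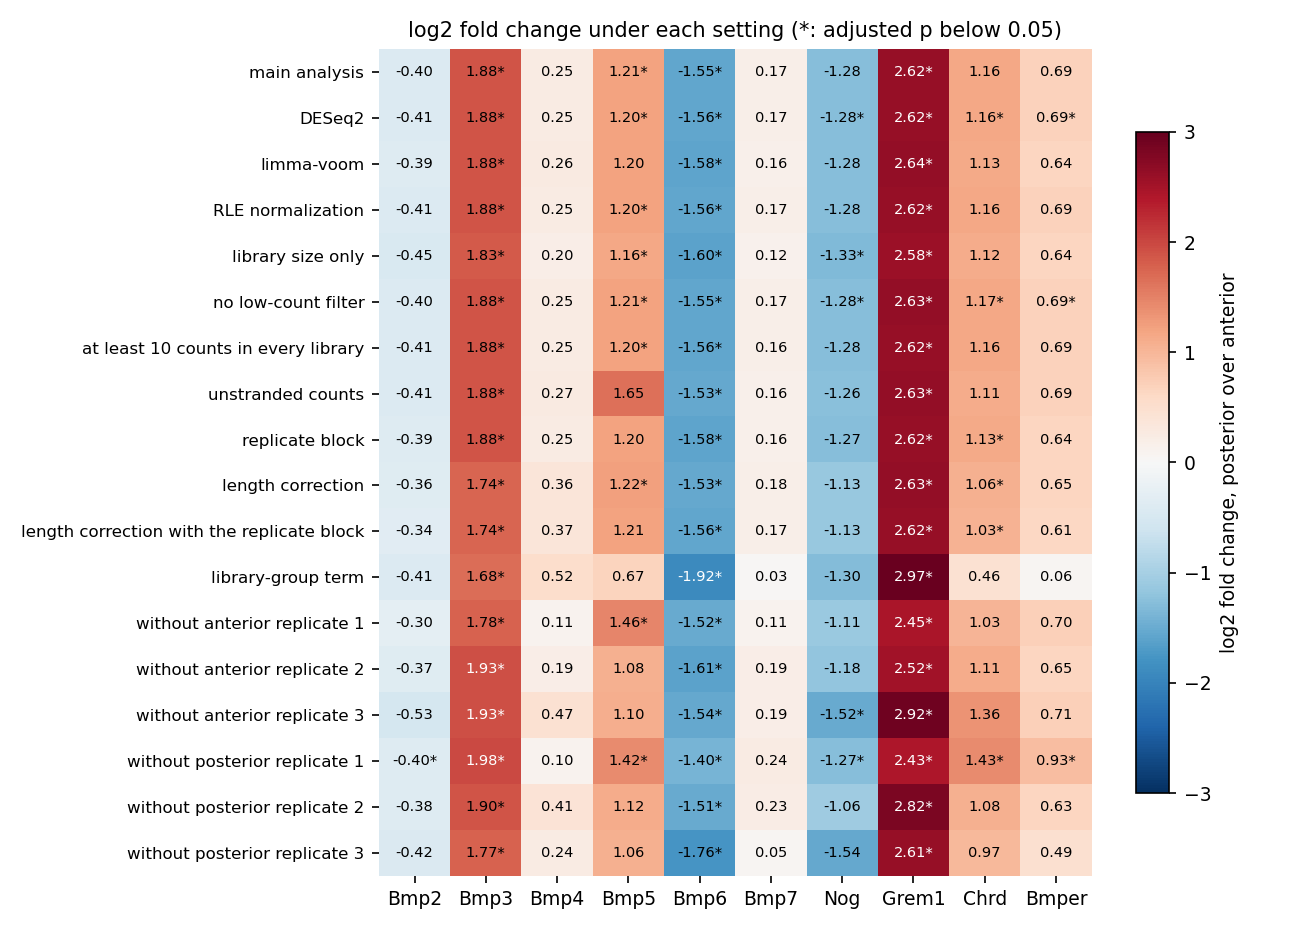
Log2 fold change, posterior over anterior palate (colour and numbers), of the 10 genes (columns) in the main analysis and 17 alternative settings (rows), with asterisks for adjusted p-values below 0.05. Bmp3, Bmp6 and Grem1 carry an asterisk in every row, Bmp4 and Bmp7 in none, and no gene changes its sign.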

How the data were processed

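Bulk RNA-seq of 3 anterior and 3 posterior palate libraries was grouped by the region in the labels. For each library the authors deposited gene counts that had not been normalized, in an unstranded form and for each strand. The layout is that of STAR, whereas the submitters' notes name HISAT2, StringTie and DESeq2 1.30.1 with mm10. The annotation version is not given in the sources used here, so symbols, positions and exon lengths came from GENCODE M21, where Hjv is called Hfe2. The reverse-stranded counts were 18.95 to 23.1 times those of the other strand and were used here. Reads that were unmapped or mapped to several places stayed out of tests and library sizes.

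A gene entered the test if 3 or more libraries held 10 or more of its counts. The test was the quasi-likelihood test of edgeR 4.0.16 (R 4.3.3) with TMM scaling and region as its single term, with Benjamini-Hochberg adjustment over all genes and a threshold of 0.05. The standard error is the absolute log2 fold change divided by the square root of F. The alternatives were DESeq2 1.42.0, limma-voom (limma 3.58.1), other normalizations and filters, unstranded counts, a replicate block, a length correction, a library-group term that sets posterior replicates 2 and 3 apart and leaving out each library. With the library-group term, the region value rests on posterior replicate 1 alone against the anterior libraries. The fits were tested on simulated data. Same-region replicates differed beyond sampling noise. The members, lists and tests were chosen with earlier results of these data known. All members were named, then up to 15 called pathway genes by adjusted p-value, and Id1 to Id3, Smad7, Bmpr1a and Bmpr2 whether called or not. Dental and palatal marker genes named singly were chosen after their values were seen. The results of 2 genes of the lists are not reported here.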

Additional observations from a re-analysis of the deposited data

How the results depend on the processing

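Bmp3, Grem1 and Bmp6 were called under all 17 alternatives and Bmp4 and Bmp7 under none of them, and none of the 10 genes changed sign. The number of the 10 genes called was 4 in the main analysis, 7 with DESeq2 and 7 without the filter on low counts, and 3 to 8 when 1 library was left out, the 8 coming without posterior replicate 1, where 46.4% of all genes were called. Of the antagonists, 1 was called in the main analysis, 4 with DESeq2, 4 without the filter, 2 with library size only, 2 with the length correction, 2 with the replicate block and 2 with both, and 1 to 4 when 1 library was left out. Over all genes, 1978 were called with DESeq2 (637 anterior, 1341 posterior) and 2162 without the filter (646 anterior, 1516 posterior), and 237 were called higher in the anterior palate with the replicate block. Leaving out 1 library gave 498 to 7119 genes (140 to 3242 anterior, 312 to 3877 posterior), and 8 to 32 of the other pathway genes. Bmp5 missed the threshold with limma-voom (1.20), unstranded counts (1.65), the replicate block (1.20) and the length correction with the replicate block (1.21). It was 0.67 with the library-group term, and ranged from 1.06 to 1.46 when 1 library was left out. Nog passed it with DESeq2 (-1.28), library size only (-1.33) and no filter (-1.28), and ranged from -1.54 to -1.06 when 1 library was left out. Chrd passed it with DESeq2 (1.16), no filter (1.17), the replicate block (1.13), the length correction (1.06) and both together (1.03), ranged from 0.97 to 1.43 when 1 library was left out, and was 0.46 with the library-group term. Bmper passed it with DESeq2 (0.69) and no filter (0.69), ranged from 0.49 to 0.93 when 1 library was left out, and was 0.058 with the library-group term, while Bmp2 ranged from -0.53 to -0.30 over the omissions. Id1 turned to 0.083 with the library-group term. The difference in the log2 ratio of ligands to antagonists was -0.72 without Bmp3, against -0.51. The cause of these changes was not tested.

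Same-numbered anterior and posterior libraries did not deviate together (r = -0.053, 0.045 and 0.036 for replicates 1, 2 and 3). The labels do not say whether they share animals. Posterior replicate 1 also lay far from replicates 2 and 3, so these values cannot decide whether the numbers pair the libraries. The replicate block changed the calls of Bmp5 and Chrd only among the 10 genes. The counts of Chrd, Nog and Bmp5, the lowest of the 10 genes, limit their precision. Of the pathway genes, 8 had too few counts to be tested. With 3 libraries in a region, no single library was checked as an outlier.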
